A study of Mus musculus with 12 samples.

Results

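The 10 pericyte and smooth muscle genes examined here were chosen by name, as genes of pericyte recruitment, pericyte markers and genes of the contractile apparatus. All 10 were measured, among 24570 named genes, in whole retina of male C57Bl6/J mice. Diabetes had been induced in 6 of the 12 animals by streptozotocin, which destroys pancreatic beta cells, given intraperitoneally at 160 mg/kg to mice of 8 weeks and 24 to 26 g. Their blood glucose exceeded 15 mM after 7 days. The other 6 animals were normoglycemic, age-matched and untreated with streptozotocin. Retinas of both groups were taken at 6 weeks, although the series text gives 6 weeks as the age of the diabetic animals, in conflict with the age at injection. Each animal gave 1 array. The label numbers of the animals do not overlap between the groups, and their meaning is not stated, so any cohort or day they mark cannot be told apart from diabetes.

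Pericytes are contractile cells that wrap the endothelium of capillaries, and smooth muscle cells take their place around arterioles. Endothelial cells recruit both by secreting PDGF-B, which acts on PDGF receptor beta of the mural cell. Retinal capillaries are densely covered by pericytes, and loss of pericytes is a classical lesion of diabetic retinopathy. Because whole retina was profiled, fewer mural cells and less RNA per mural cell cannot be told apart in any value below.

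Values are log2 levels after RMA, an array summary that gives all arrays 1 distribution, here from 5.07 to 14.10 with its median at 5.73. Correlations between arrays ran from 0.993 to 0.998. The 17 genes that define retinal cell types averaged 10.27 ± 0.04 in diabetic and 10.32 ± 0.02 in control retinas (SD, n = 6 each). The mean of 19 lens markers ran from 5.74 to 7.05 in diabetic and from 5.84 to 6.31 in control retinas, and diabetic replicate 6 had the highest mean of both lens and pigment markers. The mean of 15 skeletal muscle markers stayed between 5.53 and 5.60 in diabetic and between 5.52 and 5.59 in control retinas. It lay below the array median on every array, although 3 of the 15 markers were at or above the median gene. The mean of 15 fibroblast markers ranged from 5.78 to 5.94 in diabetic and from 5.80 to 5.84 in control retinas. It was again highest in diabetic replicate 6. In limma, 0 of 15 skeletal muscle, 19 lens, 12 pigment, 9 cornea and 5 red blood cell markers passed the test over all genes. At an unadjusted p under 0.05 there were 4, 2, 1, 1 and 0 of them. Across all genes, 3.24% passed and 21.0% had an unadjusted p under 0.05. Of the lens markers, 16 of 19 had changes above 0, with a median change of 0.10, while 51.8% of all genes had changes below 0. Diabetic replicates 6 (7.05) and 2 (6.61) had the highest lens means, while the other diabetic retinas ran from 5.74 to 6.05. The mean of the lens markers was 6.22 ± 0.51 in diabetic and 6.02 ± 0.20 in control retinas (SD, n = 6 each). Of the retinal markers, 1 of 17 passed (3.24% of all genes did). It was cone arrestin (Arr3), lower in diabetic retinas with a log2 change of -0.30 ± 0.07 (adjusted p = 0.0348 in limma). The call of Arr3 was lost without diabetic replicates 1, 3, 4 or 6 or control replicates 1, 3, 4 or 6 (adjusted p up to 0.0663) and with lens markers as a covariate (adjusted p = 0.0599).

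Of the 10 genes, Acta2 fell in diabetic retinas, and no other passed the test in either direction. Acta2, which encodes smooth muscle alpha-actin, was 0.867 times its control level (log2 change -0.21 ± 0.05, SE, n = 6 per group). Across all genes, 797 (3.24%) passed the same limma test, 435 of them lower (1.77%), and a single call among 10 genes is not a result about the set. Changes of 8 of the 10 genes lay below 0, where 51.8% of all genes did, and the median change of the 10 was -0.03, against -0.00 over all genes. At an unadjusted p under 0.05 there were 2 of the 10, Acta2 and Notch3, where 21.0% of all genes reached that level. Control means of 5 of the 10 (Pdgfb, Cspg4, Kcnj8, Tagln and Des) lay below the array median of 5.73, where a change of the transcript can be understated. For 0 of the 10 genes were the groups free of overlap, as they were for 2.84% of all genes.

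**Figure D1:**
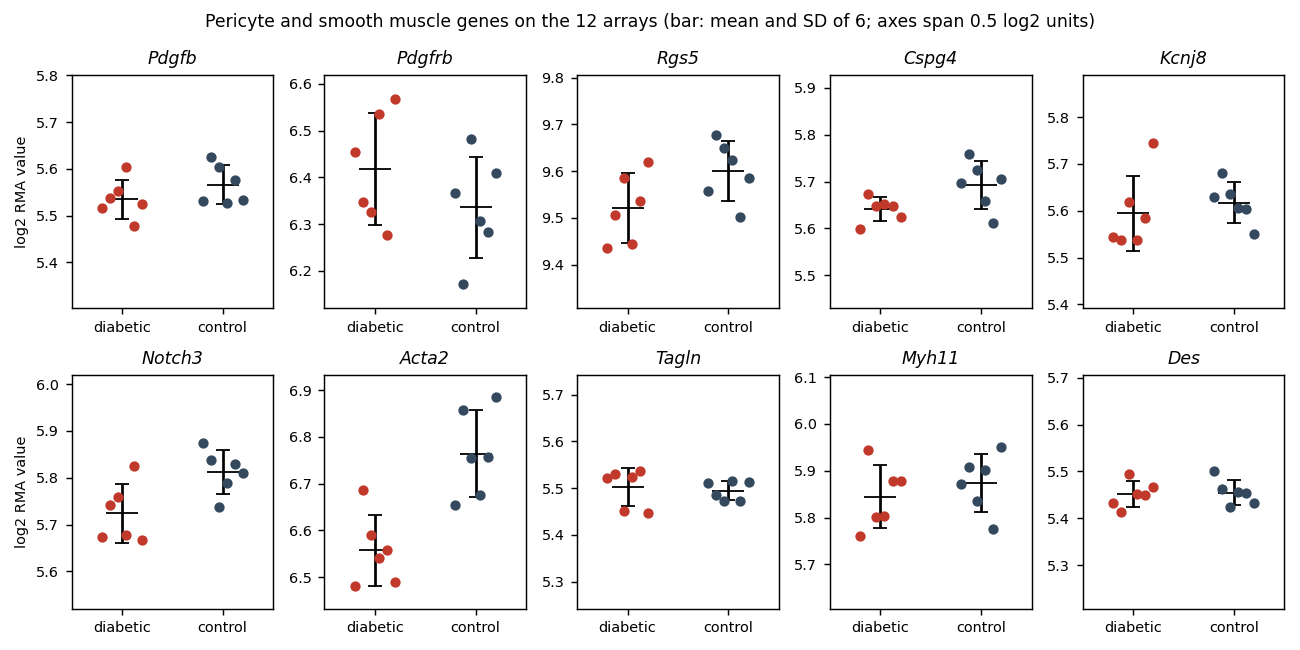
Log2 RMA value (vertical axes, each spanning 0.5 units) of the 10 genes on each array, diabetic left and control right; points are animals and bars are the mean and SD of 6. Acta2 lies lowest in diabetic retinas, with 5 of 6 below every control, while the groups overlap for all 10 genes.

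The recruitment signal did not pass the test at the ligand or at the receptor. Pdgfb, the endothelial ligand, ranged from 5.48 through a median of 5.53 to 5.60 in diabetic retinas, against 5.53, 5.56 and 5.62 in control retinas. Below all controls lay 3 of the 6 diabetic values, and 2 controls lay above all diabetic values. Its log2 change was -0.03 ± 0.02 (adjusted p = 0.499), with a 95% interval from -0.08 to 0.02.

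Pdgfrb, the receptor through which mural cells are held on the vessel, ran from 6.28 through a median of 6.40 to 6.57 in diabetic retinas, against 6.17, 6.34 and 6.48 in control retinas. It was the most variable of the 10 genes between animals, with a pooled SD of 0.11 within groups. The 2 highest values were diabetic and the lowest was a control, with the other animals of both groups mixed between. The log2 change was 0.08 ± 0.06 (adjusted p = 0.482), and its interval, from -0.05 to 0.22, reached a 1.16-fold increase.

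Among the pericyte markers, no gene passed the test. Rgs5, a regulator of G-protein signalling that is abundant in pericytes, ranged from 9.44 through a median of 9.52 to 9.62 in diabetic retinas and from 9.50 through 9.60 to 9.68 in control retinas. The 2 lowest values were diabetic and the 3 highest were controls. Its log2 change was -0.08 ± 0.04 (adjusted p = 0.266), with an interval from -0.16 to 0.00.

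Cspg4, the NG2 proteoglycan of the pericyte surface, had values from 5.60 through a median of 5.65 to 5.67 in diabetic retinas, against 5.61, 5.70 and 5.76 in control retinas. All 6 diabetic values lay below the control mean, and 4 controls lay above every diabetic retina. The log2 change was small, -0.05 ± 0.02 (adjusted p = 0.240). Kcnj8, the pore subunit of the ATP-sensitive potassium channel of mural cells, ranged from 5.54 through 5.56 to 5.75 in diabetic retinas and from 5.55 through 5.62 to 5.68 in control retinas. Diabetic replicate 6 alone gave the highest Kcnj8 value, and 3 diabetic retinas gave the lowest ones. The log2 change of Kcnj8 was -0.02 ± 0.04 (adjusted p = 0.760).

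Notch3, the Notch receptor of arterial smooth muscle and pericytes, came nearest to the threshold after Acta2. It ranged from 5.67 through a median of 5.71 to 5.83 in diabetic retinas, against 5.74, 5.82 and 5.87 in control retinas. Below all controls lay 3 diabetic values, and 3 controls lay above all diabetic values. The log2 change was -0.09 ± 0.03, with an interval from -0.16 to -0.02, an unadjusted p of 0.0143 and an adjusted p of 0.130 in limma.

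**Figure D2:**
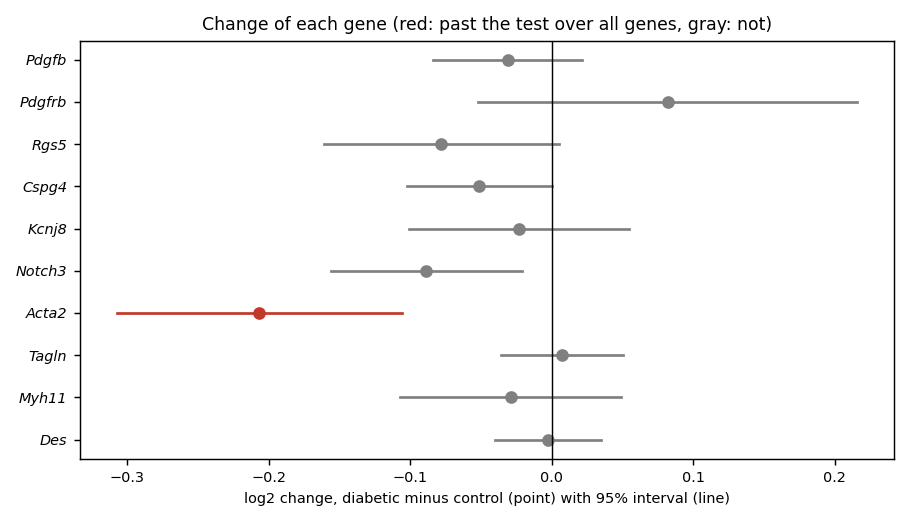
Log2 change of each gene, diabetic minus control (horizontal axis), with points for limma estimates and lines for 95% intervals. Acta2, in red, passed the test over all genes at -0.21; the intervals of Notch3 and Acta2 lie below 0 and those of the other 8 genes include it.

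Among the contractile genes, Acta2 passed the test and Tagln, Myh11 and Des did not. Acta2 had values of 6.48, 6.55 (median) and 6.69 at the lowest, middle and highest of the diabetic retinas, against 6.65, 6.76 and 6.88 in control retinas. Of the 6 diabetic animals, 5 lay below every control, and only diabetic replicate 2 (6.69) reached above controls 1 (6.65) and 4 (6.67). Means were 6.56 ± 0.08 in diabetic and 6.76 ± 0.09 in control retinas (SD, n = 6 each), the adjusted p was 0.0367 in limma, and the 95% interval of the log2 change ran from -0.31 to -0.11, or 0.808-fold to 0.929-fold.

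The call of Acta2 depended on which arrays were kept. Over all genes, calls also fell from 797 to as few as 325 with a single array left out. With single arrays left out, its log2 change stayed between -0.23 and -0.18, but the adjusted p ran from 0.0222 to 0.0721 and passed in 3 of 12 runs, those without diabetic replicate 2, control replicate 1 or control replicate 4. It was lost without diabetic replicates 1, 3, 4, 5 or 6 and without control replicates 2, 3, 5 or 6. With lens markers as a covariate the change was -0.21 (adjusted p = 0.0635), and with fibroblast markers -0.20 (adjusted p = 0.0515).

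**Figure D3:**
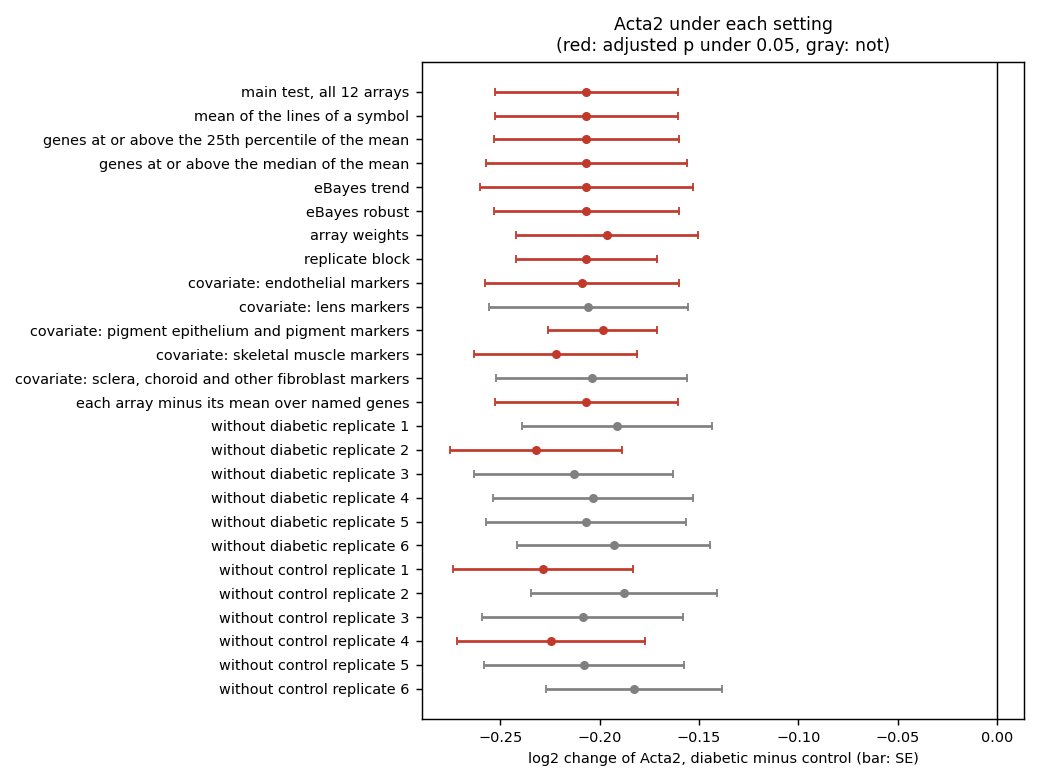
Log2 change of Acta2, diabetic minus control (horizontal axis, points with SE bars), in the main test and under each other setting, red where the adjusted p was under 0.05. Every estimate lies between -0.23 and -0.18, while the call passed in 3 of the 12 runs without a single array.

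The promoter of Acta2 is shown because Acta2 is the one gene of the set that passed, and because smooth muscle genes are known targets of serum response factor, which binds the CArG box. RefSeq promoter sequences (build GRCm38.p6) were found for 6 of the 10 genes, Acta2, Des, Rgs5, Cspg4, Kcnj8 and Notch3. The window is the 250 bases before the annotated start, on the minus strand for Acta2 (chr19:34255374-34255623) and on the plus strand for Des (chr1:75360042-75360291), the contractile gene shown for comparison. Capitals mark CArG boxes with 1 G or C in place of A or T in the core.
Acta2: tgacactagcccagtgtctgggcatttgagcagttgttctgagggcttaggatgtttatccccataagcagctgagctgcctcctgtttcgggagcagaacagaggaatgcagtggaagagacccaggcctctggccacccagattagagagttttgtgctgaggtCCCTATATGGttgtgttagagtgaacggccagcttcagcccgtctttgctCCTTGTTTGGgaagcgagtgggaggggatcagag
Des: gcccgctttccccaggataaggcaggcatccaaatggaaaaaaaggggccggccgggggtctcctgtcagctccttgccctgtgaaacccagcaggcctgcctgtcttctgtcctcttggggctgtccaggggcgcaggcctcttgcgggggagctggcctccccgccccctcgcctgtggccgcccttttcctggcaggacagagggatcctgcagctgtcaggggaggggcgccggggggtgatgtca

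The Acta2 window held 2 such boxes, 84 to 75 and 34 to 25 bases before the annotated start, and none of the other 5 windows held one. The relaxed form was searched after the exact CArG box had given no match in any of the 6 windows. Among all 32851 promoter windows, 1.47% held an exact CArG box, 7.24% the form with 1 core substitution and 0.55% 2 or more of it. The TEAD-binding MCAT element (CATTCC, either strand) was also present in the Acta2 window and in 12.6% of all windows. Neither TATAAA (12.4% of all windows) nor the Rbpj site GTGGGAA (5.42%), the site of the Notch effector, was found in the 6 windows. These matches describe letters in the windows and not binding.

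Tagln, the actin-binding protein transgelin, had a level below the array median. It ranged from 5.45 through 5.52 to 5.54 in diabetic retinas, against 5.47, 5.50 and 5.52 in control retinas. Diabetic values lay on both sides, 4 above and 2 below all controls, so the diabetic SD was 0.04 and the control SD 0.02. The log2 change was 0.01 ± 0.02 (adjusted p = 0.872), with an interval from -0.04 to 0.05.

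Myh11, the smooth muscle myosin heavy chain, ran from 5.76 through 5.84 to 5.94 in diabetic retinas and from 5.78 through 5.89 to 5.95 in control retinas. All but 1 animal of each group lay within the range of the other, with a log2 change of -0.03 ± 0.04 (adjusted p = 0.692; interval from -0.11 to 0.05). Des, the muscle intermediate filament desmin, ranged from 5.41 through 5.45 to 5.49 in diabetic retinas and from 5.42 through 5.45 to 5.50 in control retinas. Its log2 change was -0.00 ± 0.02 (adjusted p = 0.948; interval from -0.04 to 0.03), the smallest of the 10 genes. Whether the change of Acta2 differed from those of Tagln, Myh11 or Des was not tested.

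Within groups, no pair of the 10 genes could be shown to vary together. Over the 45 pairs, Pearson correlations of the deviations from the group means over 12 arrays ran from -0.77 to 0.73 with a median of 0.07, 25 above and 20 below 0. No pair passed a permutation test adjusted over the 45 pairs, where the lowest adjusted p was 0.0642 and 3 pairs had an unadjusted p under 0.05. Rgs5 with Kcnj8 had the highest r (r = 0.73, rho = 0.74, permutation p = 0.0038 and 0.0077, adjusted p = 0.0642 and 0.173). Without the 2 arrays farthest from the median, its r was 0.76. In each pair these 2 arrays were chosen by the first gene named alone. Pdgfrb with Notch3 had the lowest r (r = -0.77, rho = -0.82, permutation p = 0.0039 and 0.0019, adjusted p = 0.0642 and 0.0877). Without 2 arrays its r was -0.77. Tagln with Kcnj8 came next (r = -0.74, rho = -0.64, permutation p = 0.0043 and 0.0275, adjusted p = 0.0642 and 0.226). Its r was -0.56 without 2 arrays. The contractile genes Acta2 and Tagln had an r near 0 (r = 0.07, rho = 0.09; permutation p = 0.819 and 0.783; adjusted p = 0.882 and 0.921), with r = -0.28 without 2 arrays.

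**Figure D4:**
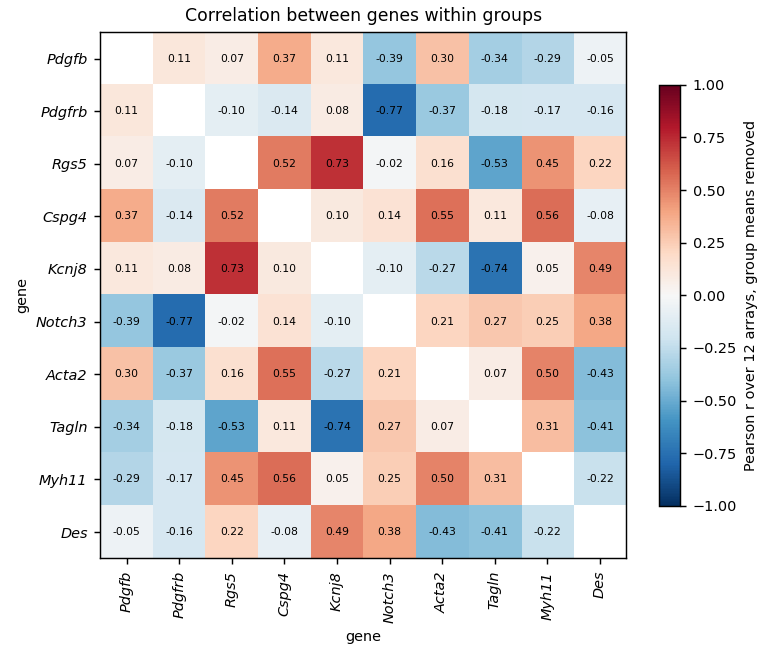
Pearson r between the 10 genes over 12 arrays after removal of the group means (color scale from -1 to 1; both axes list the genes). Rgs5 with Kcnj8 is highest at 0.73 and Pdgfrb with Notch3 lowest at -0.77; 25 of the 45 pairs lie above 0.

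Within both groups, Acta2 was lower in animals with higher levels of pigment epithelium markers, genes of the layer behind the retina. The mean of 12 pigment epithelium and pigment markers was 6.48 ± 0.34 in diabetic and 6.44 ± 0.25 in control retinas (SD, n = 6 each), ranging from 6.13 to 7.08 and from 6.13 to 6.70. The correlation of Acta2 with this mean was r = -0.81 within diabetic and r = -0.93 within control retinas (6 arrays each). Over the 12 arrays with group means removed, r was -0.84 and rho -0.87 (permutation p = 0.0007 and 0.0006). Adjusted over 80 relations between the 10 genes and 8 marker lists, which were not planned, these p-values were 0.0536 and 0.0456. The permutations ran over all 12 arrays together although the group means had been removed. This makes the p-values somewhat too small, so 0.0456 is not read as a pass. Without the 2 arrays farthest from the median of the marker mean, r was -0.90. Of the 12 markers, 11 had r below 0, with Ttr (-0.88), Rdh5 (-0.88), Rpe65 (-0.88) and Lrat (-0.87) lowest. The pigment genes Tyr (-0.66), Slc45a2 (-0.64), Tyrp1 (-0.50), Dct (-0.47), Mlana (-0.39), Mitf (-0.39) and Pmel (-0.21) lay nearer to 0, and Best1, a channel of the pigment epithelium, had 0.08. Cspg4 leaned the same way as Acta2 with the marker mean, with r = -0.75 within diabetic and r = -0.68 within control retinas. Over the 12 arrays, r was -0.63 and rho -0.81 for Cspg4 (permutation p = 0.0291 and 0.002; adjusted p = 0.289 and 0.0784), with r = -0.71 without 2 arrays. With the mean of the markers as a covariate, the log2 change of Acta2 was -0.20 ± 0.03 (adjusted p = 0.00717 in limma). The markers tracked Acta2 on these same arrays, which narrows the SE (0.05 without the covariate). The lower p is thus no separate support for the call.

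**Figure D5:**
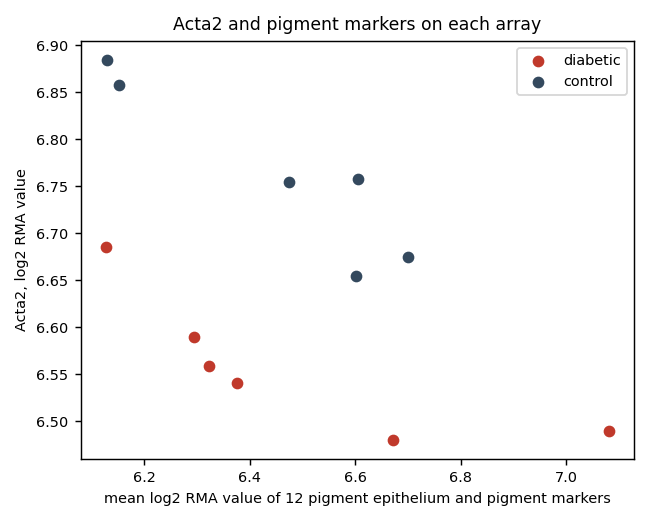
Acta2 (vertical axis, log2 RMA value) against the mean log2 RMA value of 12 pigment epithelium and pigment markers (horizontal axis), 1 point per array. Diabetic points (red) lie below control points (dark) at similar marker levels, and Acta2 declines along the axis in both groups.

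The genes of highest correlation with single members, taken from genes whose mean reached the median, were of other kinds. For Acta2 these were Hdgfl2 (r = 0.94), Exosc10 (0.92) and Tepsin (0.91) over the 12 arrays with group means removed. For Rgs5 they were Ttc1 (0.90), Nmnat2 (0.89) and Sdf2 (0.88). For Pdgfrb they were Slc5a3 (0.91), Tll1 (0.90) and Arfip1 (0.89), and for Tagln St7l (0.94), Mcm8 (0.89) and Grpel2 (0.89). They are the top of a ranking over all such genes on the same 12 arrays and are given as a description.

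Other genes of the same pathways were mostly below the threshold, with single rises. In the PDGF family, 1 of 5 genes passed, where 3.24% of all genes did. Pdgfra, the receptor for PDGF-A that marks retinal astrocytes and fibroblasts, ranged from 5.81 to 5.97 in diabetic retinas, against 5.64 to 5.79 in control retinas, without overlap, as for 2.84% of all genes. It rose 1.14-fold (log2 change 0.19 ± 0.04; adjusted p = 0.0205) and kept the call with each array left out in turn. It is also 1 of the 15 fibroblast markers, of which no other passed, with a median change of -0.02. Pdgfa (-0.06 ± 0.04; adjusted p = 0.401), Pdgfd (0.07 ± 0.07; adjusted p = 0.603) and the coreceptor Nrp1 (0.04 ± 0.02; adjusted p = 0.269) did not pass.

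Of 13 Notch ligands, receptors and targets, 1 passed (3.24% of all genes did) and 6 had an unadjusted p under 0.05 (21.0% of all genes). Changes of 4 of the 13 lay below 0, where 51.8% of all genes did, and the median change was 0.07, against -0.00 over all genes. Notch2, a further Notch receptor, ran from 7.03 to 7.46 in diabetic retinas, against 6.80 to 7.05 in control retinas, with 1 diabetic retina inside the control range. It rose 1.28-fold (log2 change 0.35 ± 0.07; adjusted p = 0.0255) and lost the call without diabetic replicate 3 or 4 (adjusted p up to 0.0545). Heyl, a Notch target of mural cells, had a change of -0.13 ± 0.05 (adjusted p = 0.165), Notch1 of 0.10 ± 0.03 (adjusted p = 0.145) and Rbpj of 0.12 ± 0.05 (adjusted p = 0.179).

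Of 10 regulators around serum response factor and myocardin, 1 passed with a rise, where 1.47% of all genes did. Changes of 6 of the 10 lay below 0 (51.8% of all genes), and their median change was -0.03. Fhl2, the gene that passed, is a LIM protein that binds serum response factor. It ranged from 5.60 to 5.69 in diabetic and from 5.47 to 5.59 in control retinas, without overlap, as for 2.84% of all genes. All its values lay below the array median of 5.73. Its log2 change was 0.12 ± 0.02 (adjusted p = 0.0275), and the call was lost without diabetic replicates 1, 3, 5 or 6 or control replicate 6, with adjusted p up to 0.0574. The transcription factor Elk1 (-0.17 ± 0.04; adjusted p = 0.0534), the smooth muscle coactivator Myocd (-0.11 ± 0.04; adjusted p = 0.155) and Srf itself (-0.08 ± 0.04; adjusted p = 0.244) missed the threshold. Myocd values were 5.60 to 5.69 in diabetic and 5.68 to 5.95 in control retinas.

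No gene passed among 23 other contractile genes or 22 other mural cell markers, where 3.24% of all genes did. Their median changes were -0.00 and -0.01. At an unadjusted p under 0.05 there were 5 of the 23 and 6 of the 22, where 21.0% of all genes reached that level. Mean levels of 12 of the 23 and 9 of the 22 were at or above the median gene. The others, with Actg2, Higd1b and Mcam among them, lay below it, where a change of the transcript can be understated. Actg2, the enteric smooth muscle actin, had a change of -0.05 ± 0.02 (adjusted p = 0.101), the actin crosslinker Actn1 of 0.15 ± 0.06 (adjusted p = 0.150) and the myosin light chain Myl9 of 0.12 ± 0.05 (adjusted p = 0.175). Among mural markers, Tbx2 (-0.18 ± 0.06; adjusted p = 0.121), Higd1b (-0.04 ± 0.01; adjusted p = 0.123) and Mcam (0.08 ± 0.03; adjusted p = 0.124) had the smallest p-values. Whether the probes tell Acta2 from the other actins was not tested. Cytoplasmic Actb had a change of 0.15 ± 0.05 (adjusted p = 0.103), skeletal Acta1 of 0.03 ± 0.06 (adjusted p = 0.767) and cardiac Actc1 of 0.02 ± 0.06 (adjusted p = 0.892).

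Endothelial markers, the other wall cell of the capillary, gave 0 of 20 past the test in limma, where 3.24% of all genes passed. At an unadjusted p under 0.05 there were 5 of the 20, where 21.0% of all genes reached that level. Their median change was 0.00. The mean of the 20 markers was 6.60 ± 0.02 in diabetic and 6.59 ± 0.02 in control retinas (SD, n = 6 each). Of the 20, 10 had a mean level at or above the median gene. Single markers ran from Ly6c1 (5.23 in diabetic and 5.22 in control retinas) to Slc2a1 (11.44 and 11.35). Whether the mean of the 20 markers measures endothelial content was not tested. Cldn5, the barrier claudin, had a change of -0.09 ± 0.03 (adjusted p = 0.0803), Kdr of 0.26 ± 0.08 (adjusted p = 0.0944) and the lipid transporter Mfsd2a of -0.11 ± 0.04 (adjusted p = 0.120). With the endothelial mean as a covariate, the log2 change of Acta2 was -0.21 ± 0.05 (adjusted p = 0.0494).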

How the data were processed

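Biotinylated cRNA was made from whole-retina RNA by the Affymetrix procedure, per the labels' protocols. The deposited log2 values were made by the authors with RMA, per the submitters' processing notes. Neither its version nor the array name or build is given there. The table has 24973 lines, 1 per Entrez gene number. Platform annotation named 24015 and RefSeq (GRCm38.p6) 559, and 399 without a name were left out. For 4 symbols on several lines the brightest line was kept, leaving 24570 genes. All 12 arrays held the same sorted values, so a shift of most genes would not be visible. The number of arrays limits the precision.

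Diabetic minus control was tested with limma 3.58.1 (R 4.3.3), two-sided; p-values were adjusted by the Benjamini-Hochberg method across the 24570 genes, with 0.05 as the threshold. Errors are SEs from limma or SDs over animals. Correlations used 100000 permutations over both groups together. Because the group means had been removed first, the permutation p-values are somewhat too small. All 10 genes are named, as are members of other lists past the test or, failing that, up to 3 of smallest p, and the 3 genes of highest correlation with Acta2, Tagln, Rgs5 and Pdgfrb. The genes and lists were chosen with earlier results of these data known. The procedure was tested on simulated data. Replicate numbers do not pair the animals in the labels. Control probes and detection calls were not used here.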

Additional observations from a re-analysis of the deposited data

Results flagged for a closer look

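Of 58 groups of 6 arrays examined (the 10 genes, the other named genes past the test and the means of the marker lists), 1 had an array far from the other 5, where chance gives about 1 in 20. The mean of the retina defining markers in control arrays was highest in control replicate 3 (10.36), with a ratio of gap to range of 0.665 against a critical value of 0.625. None of the 10 pericyte and smooth muscle genes had such an array.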

How the results depend on the processing

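Directions of 9 of the 10 genes held under every setting tried; Des, at no measurable change, ran from -0.011 to 0.0063 with single arrays left out. The 1 call, that of Acta2, held in 11 of 13 other settings; 0 genes of the set passed with lens markers or with fibroblast markers as a covariate, and 0 to 1 with single arrays left out. No setting brought another of the 10 genes past the test. Over all genes, 797 passed, against 506 with the replicate block, 462 with lens markers and 1373 with skeletal muscle markers as a covariate, 1967 at an adjusted p under 0.1, which admits more genes by construction, and 325 to 835 with single arrays left out. It moved by over 1.5 times without diabetic replicates 1, 3, 4 or 6 or control replicates 1, 2, 3 or 6 (325 to 464). The cause was not tested. Replicate numbers did not pair the animals: deviations of same-numbered animals correlated by -0.16 to 0.17, over 0.1 for 1 of 6 pairs, and 1 of 6 diabetic arrays correlated best with its own number. With the replicate block, Acta2 kept its call (adjusted p = 0.0442) while Fhl2 lost it (adjusted p = 0.0683), as it did with lens markers as a covariate (adjusted p = 0.0507). Background levels of single genes are not in the table, which limits what can be said of the 5 genes below the array median.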
